A study of Mus musculus with 6 samples.

Results

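Among 1396 kept undifferentiated parental mouse embryonic stem cells (ESC), 167 met a rule requiring messages of both calretinin (Calb2) and thyrotropin-releasing hormone (Trh). These double-positive cells are the subject here. They were chosen by UMI (unique molecular identifier) counts in the parental ESC library alone. A cell needed at least 2 UMIs of Calb2, at least 1 of Trh, and fewer than 2 each of Foxd1 and Dppa3. The reference was the other 1229 kept cells of the same library, and 7096 cells were kept over all 6 libraries of the study. A barcode was kept with at least 1000 genes and at most 10% of UMIs from mitochondrial genes.

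The study profiled conditional knockout (Oct1_cKO, here cKO) and parental ESC as undifferentiated cells and at days 3 and 6 of a differentiation towards mesoderm, with 1 library for each of the 6 groups. Pou2f1 encodes Oct1, a DNA-binding protein related to Oct4. For differentiation the cells received Bmp4 and afterwards Rspo3, which enhances Wnt signals, with LDN-193189, which blocks BMP receptors, and the double-positive cells and their reference had received none of these. The name of the line, the number of clones behind it and the agent of the deletion are not given in the sources used here. Libraries were made with a 10x Genomics 5′ kit, so a UMI counts 1 tagged 5′ end of a transcript, and the 6 libraries held 41665721 to 85102600 UMIs.

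Calretinin is a cytosolic calcium buffer with EF-hand domains, best known as a marker of subsets of neurons. Thyrotropin-releasing hormone is a tripeptide cut from a larger precursor, and its message is also well known from undifferentiated mouse ESC. Metallothioneins, among them Mt1 and Mt2, are small cysteine-rich proteins that bind zinc and copper and that rise with free metal through the transcription factor MTF1 and its metal response elements. Phgdh and Psat1 catalyse the opening steps of serine synthesis from a glycolytic intermediate, and Mthfd2 passes one-carbon units made from serine through the mitochondrial folate cycle.

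Calb2 lies on chr8:110137502-110168210 (mm10, minus strand) and Trh on chr6:92242061-92244650 (minus strand). Mt1 and Mt2 are neighbours on chromosome 8, and Mt2 is the most abundant of the markers given with these cells, so the 250 bases before the RefSeq starts of both metallothionein genes and of Trh are shown (RefSeq, GRCm38.p6, each written 5′ to 3′ on the strand of its gene). Capitals mark matches to the metal response element core TGCNCNC in Mt2 (chr8:94172368-94172617, plus strand) and Mt1 (chr8:94178839-94179088, plus strand). In Trh (chr6:92244651-92244900, minus strand) they mark a match to the cAMP response element TGACNTCA.
Mt2: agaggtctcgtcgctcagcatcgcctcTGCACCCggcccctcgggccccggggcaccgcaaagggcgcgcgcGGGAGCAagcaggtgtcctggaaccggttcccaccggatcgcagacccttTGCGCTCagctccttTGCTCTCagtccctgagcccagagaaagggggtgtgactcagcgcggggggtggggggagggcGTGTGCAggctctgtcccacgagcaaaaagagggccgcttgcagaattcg
Mt1: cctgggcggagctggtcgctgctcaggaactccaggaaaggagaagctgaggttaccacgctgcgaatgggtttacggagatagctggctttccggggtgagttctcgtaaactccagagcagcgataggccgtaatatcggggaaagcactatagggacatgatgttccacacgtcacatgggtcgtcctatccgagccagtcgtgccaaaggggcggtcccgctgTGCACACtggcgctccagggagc
Trh: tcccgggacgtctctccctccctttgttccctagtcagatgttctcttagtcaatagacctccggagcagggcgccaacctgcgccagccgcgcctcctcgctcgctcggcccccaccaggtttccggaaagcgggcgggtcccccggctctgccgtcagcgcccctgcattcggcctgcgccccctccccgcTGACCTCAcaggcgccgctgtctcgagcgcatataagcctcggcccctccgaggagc
The Mt2 window held 5 matches of TGCNCNC, read on both strands, and the Mt1 window held 1. Of 27025 promoters of the same length, 43.8% held at least 1 match and 1.26% held at least 4. The Trh window held 1 match of TGACNTCA, found in 7.59% of promoters, and 2 unmarked matches of TGCNCNC. No base in the 3 windows lay in matches of more than 1 motif. Neither the octamer ATGCAAAT bound by POU factors (1.61% of promoters) nor the amino acid response element TGATGNAA (3.53%) was found in these windows. These letters describe the windows, each set by a RefSeq start, and say nothing of binding or of matches outside them. Among the 20 genes with the highest ratios named further on, 18 had a promoter in the table and 8 of the 18 held TGCNCNC, while none held the other 3 motifs.

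The double-positive cells made up 11.96% of the kept parental ESC (95% Clopper-Pearson interval 10.3 to 13.8%). Intervals for shares, CPM (a gene's UMI count scaled to a common total over the cells summed) and ratios cover counting error only. A single library stands behind each group, so no test between conditions was possible, and differences between double-positive and other cells describe cells of 1 library. Of the 167 cells, 65 held exactly 2 Calb2 UMIs, 39 held 3, 26 held 4 and 2 held the highest number, 9. Trh ranged over 1 to 156 UMIs with a median of 20, and 13 of the cells held 1 to 3. Trh was seen in 1094 of the 1396 kept cells, whereas 482 held a Calb2 UMI and 235 held at least 2. Of those 235 cells, 8 held no Trh and 60 more left through Foxd1 or Dppa3, of which 28 had at least 2 Foxd1 UMIs, 37 at least 2 Dppa3 UMIs and 5 both.

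Single-cell values varied widely for both chosen genes. Calb2 ran over 12.2, 49.4 and 312 CPM in double-positive cells and over 0, 0 and 333 CPM in the other cells (lowest, median and highest cell). Trh ran over 12.3, 361 and 2536 CPM in double-positive cells, against 0, 93.7 and 4250 CPM in the other cells. The highest Calb2 and Trh cells both lay outside the double-positive group, and the ranges of both genes overlapped. Summed over cells, Calb2 stood at 53.2 CPM in double-positive and 7.50 CPM in other cells, and Trh at 421 and 200.1 CPM, which the rule itself fixed. The excluded genes were at 2.68 CPM in double-positive and 23.7 CPM in other cells for Foxd1, a forkhead transcription factor, and at 3.60 and 15.3 CPM for Dppa3, a maternal factor of naive cells and the germline.

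Around the Calb2 limit the values changed by steps rather than by a break. Trh stood at 372 CPM in the 65 cells just inside, with 2 Calb2 UMIs, and at 288 CPM in the 160 cells just outside, with 1 Calb2 UMI and every other condition met. For Mt2 these levels were 1062 and 834 CPM, for Phgdh 158 and 129.6 CPM, and for Psat1 109 and 89.95 CPM. The sets had similar depths, with medians of 56346 UMIs inside and 57339 UMIs outside. They differed in the chromosome score described further on, which was high in 63.1% of the cells inside and in 43.75% of those outside. Cells with 4 or more Calb2 UMIs, of which there were 63, held 468 CPM of Trh, 1259 CPM of Mt2 and 214 CPM of Phgdh.

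Depth per cell touches the rule, since a deeper cell reaches 2 UMIs more easily. Double-positive cells had a median of 58082 UMIs (9620 to 163501), and other cells 50573 UMIs (1956 to 179320). When every cell was thinned to 20000 UMIs and the 197 shallower cells were left out, 59 of 1199 cells (4.92%, 3.77 to 6.30%) met the rule, and 53 of the 59 were among the 167. Mitochondrial genes gave a median of 5.07% of UMIs in double-positive cells and 5.40% in other cells. No double-positive barcode was shared with another library, and the parental ESC library shared 4 kept barcodes in all with the other 5.

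The cells carried the markers of ESC. Pou5f1 (Oct4) was seen in every double-positive cell, at 335.5, 714 and 1559 CPM (lowest, median and highest cell), and other cells ran over 0, 699 and 4312 CPM. Nanog was seen in 99.4% of double-positive and 81.6% of other cells. Summed over 10 ESC markers, all seen in both groups, the level was 6736 CPM in double-positive and 6303 CPM in other cells. Markers of 2-cell-like cells were at 0 for all 6 genes in double-positive cells, where the floor of 3 counts is 0.277 CPM, and other cells held 4 UMIs of 2 of the 6. The 7 primitive endoderm markers summed to 4.25 CPM in double-positive and 7.16 CPM in other cells.

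Of 7 markers of neurons, the cells for which Calb2 is best known, 6 were seen in double-positive cells and 7 in other cells. The 7 genes summed to 692 CPM in double-positive and 541 CPM in other cells, but 634 and 496 CPM of these came from Stmn2, a tubulin-binding protein seen in 100% of double-positive and 89.8% of other cells. Tubb3, a tubulin of neurons, stood at 54.9 CPM in double-positive and 40.8 CPM in other cells, and Elavl3, a neuronal RNA-binding protein, at 2.31 and 1.61 CPM. Snap25, a synaptic membrane protein, held 1 UMI in all double-positive cells and 7 UMIs in the others. Map2, a dendritic microtubule protein, stood at 1.02 CPM in double-positive and 2.12 CPM in other cells. Elavl4, a relative of Elavl3, held 1 UMI in double-positive and 23 in other cells, and Dcx, a microtubule protein of young neurons, 0 and 2.

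Fibroblast and keratin RNA lay mainly in the other cells. Of 12 fibroblast markers, 10 were seen in double-positive cells and 12 in other cells, with summed levels of 31.4 and 1151 CPM. At least 3 of 7 fibroblast markers were found in 4 of 167 double-positive cells and in 124 of 1229 other cells. At least 10 UMIs of the keratins Krt8 and Krt18 were found in 1 of 167 double-positive cells and in 64 of 1229 other cells. Summed epithelial markers stood at 188 CPM in double-positive and 479 CPM in other cells. Since these cells sit mostly in the reference, counts of called genes and ratios of the leading genes are also given without them.

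Both chosen genes were also seen in cells marked by fibroblast RNA. Whether this came from free RNA in droplets or from doublets was not tested. Of 103 cells with at least 50 UMIs of fibroblast markers, 6.796% (2.78 to 13.5%) held a Calb2 UMI and 18.4% (11.49 to 27.3%) a Trh UMI, and 4 held at least 2 Calb2 UMIs. In 1268 cells with fewer than 3 fibroblast markers those shares were 37.1% (34.5 to 39.9%) and 83.7% (81.5 to 85.7%), at a median depth of 51872.5 UMIs against 50892 UMIs in the fibroblast-marked cells. Pou5f1 was seen in 33.98% of the 103 cells, and 2 of them met the double-positive rule.

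The rule found few cells in the other libraries. It was set on Calb2 and Trh in the parental ESC library, so a larger share there partly restates that choice. At the ESC stage 4 of 530 cKO cells (0.755%, 0.206 to 1.92%) met it, against 167 of 1396 parental cells. At day 3 it was met by 3 of 1026 cKO cells (0.292%) and 11 of 948 parental cells (1.16%). At day 6 it was met by 0 of 1650 cKO cells, which allows a share of up to 0.182% by the floor of 3 counts (0.223% by the upper Clopper-Pearson bound), and by 1 of 1546 parental cells (0.0647%). After thinning, 0 of 459 cKO ESC, 0 of 979 cKO and 1 of 815 parental day 3 cells, and 0 of 945 cKO and 1 of 1066 parental day 6 cells met it.

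Calb2 was lower in every other library than in parental ESC, and Trh was lower in cKO ESC and at day 6. A Trh UMI was seen in 78.4% of parental ESC, but at day 6 in 3.17% of parental and 2% of cKO cells. Calb2 stood at 1.36 CPM in cKO and 13.9 CPM in parental ESC, at 0.642 CPM in cKO and 2.15 CPM in parental cells at day 3, and at 0.0146 CPM in cKO and 0.447 CPM in parental cells at day 6. Trh stood at 97.2 CPM in cKO and 231 CPM in parental ESC, at 486 CPM in cKO and 583 CPM in parental cells at day 3, and at 8.05 CPM in cKO and 14.2 CPM in parental cells at day 6. Trh was thus higher at day 3 than in ESC in both genotypes, while Calb2 was lower at each later stage. With 1 library per group, these differences have no replicate check. Both genes were chosen in parental ESC, so a high level there is no independent finding.

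**Figure D1:**
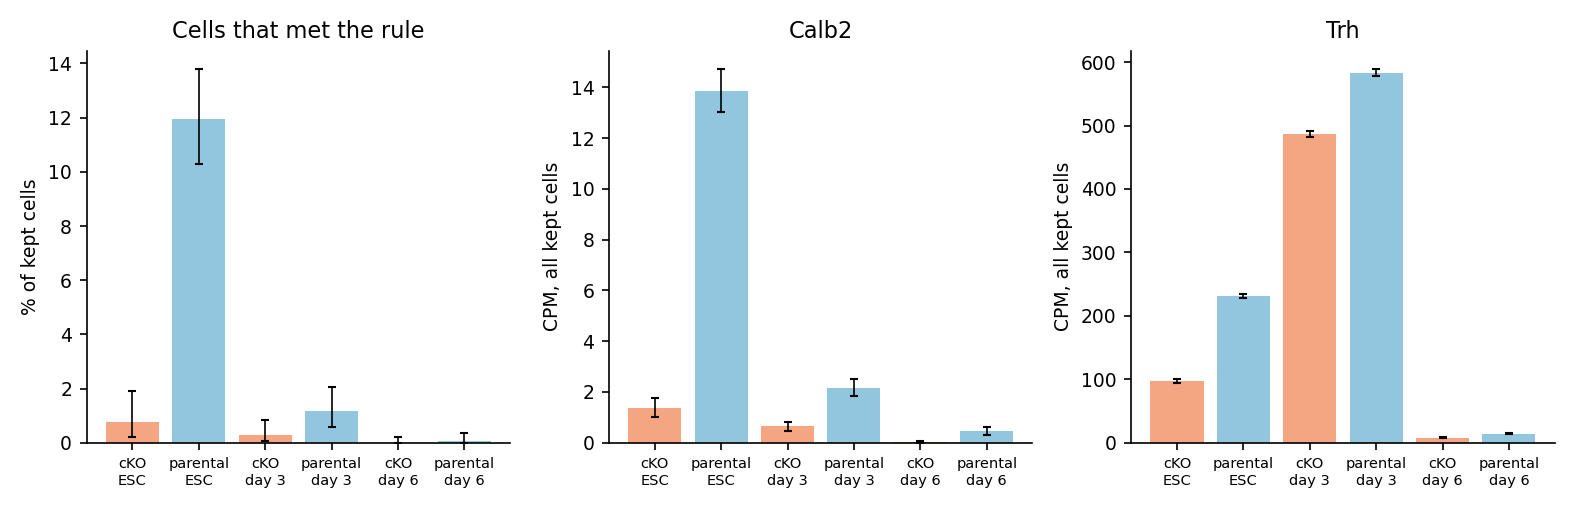
Share of kept cells that met the Calb2 and Trh rule (left), and Calb2 and Trh levels in CPM over all kept cells (middle and right), for the cKO and parental libraries of each stage, with 95% counting intervals. The parental ESC library stands apart in the share (11.96%, against at most 1.16% elsewhere) and in Calb2, while Trh is highest in both day 3 libraries. The rule and its genes were chosen in the parental ESC library, so its high share and Calb2 level partly restate that choice.

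The double-positive cells fell mostly into 1 of the classes of cells that chromosome shares separate in this library. Each cell was given a chromosome score, the mean log2 ratio of the UMI shares of chromosomes 1, 6 and 8 minus that of chromosome 11, each relative to the median cKO ESC. The chromosomes and limits of the score came from an earlier look at these data. A score above 0.25, called score-high here, was found in 114 of 167 double-positive cells (68.3%, 60.6 to 75.2%) and in 277 of 1229 other cells (22.5%, 20.2 to 24.98%). A score below -0.25, called score-low, was found in 49 double-positive (29.3%) and 549 other cells (44.7%), and a score between the limits in 4 (2.40%) and 403 (32.8%). Read the other way, 29.2% of the 391 score-high cells, 8.19% of the 598 score-low cells and 0.983% of the 407 cells between them were double-positive. Over all kept cells, 28.0% of parental ESC and 3.02% of cKO ESC were score-high. The part of this in the share of double-positive cells in each library was not tested.

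Both chosen genes lie on chromosomes of the score, so membership and score are not independent. The UMIs of the 4 rule genes were, however, left out of the shares and the score. Calb2 and Trh, at 53.2 and 421 CPM in double-positive cells, are thus no part of the 5.31% and 5.15% held there by chromosomes 8 and 6. Few cells lay near a limit, with 6 of 167 double-positive and 100 of 1229 other cells within 0.05 of one. The score-high double-positive cells held 7.64% of their UMIs on chromosome 1, 5.74% on chromosome 6, 6.07% on chromosome 8 and 9.28% on chromosome 11. The score-low double-positive cells held 5.23%, 4.26%, 4.20% and 13.6% on the same chromosomes. The score classes describe RNA shares, and chromosome numbers were not measured. The part of the score in the gene ratios that follow was not tested beyond the values given within each class.

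**Figure D2:**
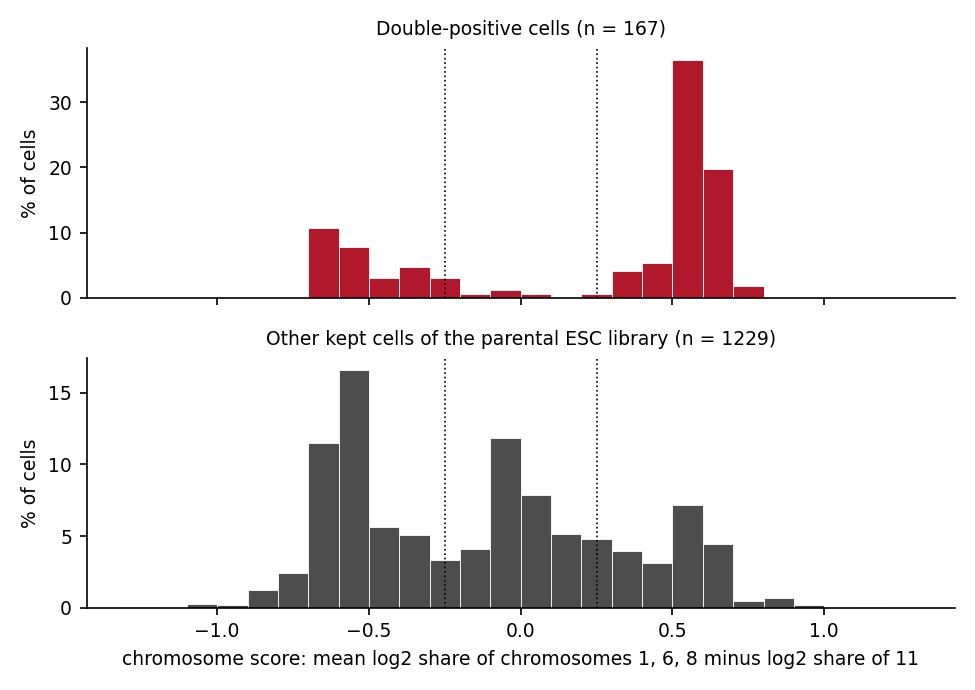
Distribution of the chromosome score in double-positive cells (top) and in the other kept parental ESC (bottom), as a percentage of cells per bin of 0.1, with the limits of 0.25 and -0.25 dotted. Most double-positive cells lie in the right-hand peak (114 of 167) and 4 lie between the limits, where 403 of the other cells lie.

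The markers of the double-positive cells followed the score classes within the group. In score-high double-positive cells Mt2 ran over 463, 1569 and 3286 CPM (lowest, median and highest cell), against 159, 527 and 1392 CPM in score-low double-positive cells. Phgdh had medians of 263 CPM in score-high and 74.4 CPM in score-low double-positive cells. Psat1 had medians of 178 and 40.3 CPM, Sgk1, a kinase induced by hormones and cell stress, 246 and 97.4 CPM, and Nme7, a centrosomal nucleoside diphosphate kinase family member, 123 and 32.7 CPM in the same classes. Trh itself had medians of 445 CPM in score-high and 133 CPM in score-low double-positive cells. The pluripotency factor Pou5f1 had nearly the same median in both, 727 CPM in score-high and 676 CPM in score-low double-positive cells. The ranges of the 2 classes overlapped for each of these genes. The score-high cells were shallower, with a median of 52424 UMIs against 75189 UMIs in score-low double-positive cells.

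Compared with all other kept cells, double-positive cells held few genes at least 1.5-fold higher and more at least 1.5-fold lower. Genes were compared where the group with the higher level reached 20 CPM, with the 4 rule genes left out. Of these 5277 genes, 43 (0.815%) were at least 1.5-fold higher in double-positive cells and 289 (5.48%) at least 1.5-fold lower. At a 2-fold limit 0 were higher and 143 lower. These calls describe the contrast that the rule defined and carry no p-value. Without the fibroblast-marked and keratin-high cells on both sides, 32 (0.625%) of 5121 genes were higher and 78 (1.52%) lower, and 27 of the 32 were among the 43.

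Metallothioneins and serine enzymes were among the higher genes. Mt2 (chr8:94172664-94173568, plus strand) ran over 84.6, 1244 and 3286 CPM in double-positive cells and over 0, 567 and 4684 CPM in other cells (lowest, median and highest cell). The cells of both groups overlapped over most of that range. Summed, Mt2 stood at 1174 CPM in double-positive and 683 CPM in other cells, a log2 ratio of 0.78 (0.75 to 0.81). Its neighbour Mt1 stood at 2355 and 1525 CPM, a log2 ratio of 0.63 (0.61 to 0.65). Mt3, a metallothionein known from brain, was rare, at 5.72 CPM in double-positive and 1.98 CPM in other cells. Its log2 ratio was 1.53 (1.07 to 1.97), and 1.51 without the fibroblast-marked and keratin-high cells. Within the score classes, in cells with fewer than 3 fibroblast markers, it was smaller. It was 0.62 (0.02 to 1.22) among score-high and 0.99 (-0.01 to 1.88) among score-low cells.

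Phgdh (chr3:98313170-98339990, minus strand) had single-cell levels of 0, 179 and 685 CPM in double-positive cells and of 0, 79.1 and 820 CPM in other cells. Its sums were 195.6 CPM in double-positive and 107.6 CPM in other cells, a log2 ratio of 0.86 (0.79 to 0.93). Psat1 (chr19:15904678-15947337, minus strand), the next enzyme of the pathway, stood at 130.7 CPM in double-positive and 75.01 CPM in other cells, a log2 ratio of 0.80 (0.71 to 0.89). Mthfd2 stood at 132 and 77.9 CPM, a log2 ratio of 0.76 (0.68 to 0.85). All 3 were detected in more double-positive than other cells, in 98.8% and 83.9% for Phgdh, 97.6% and 78.9% for Psat1, and 98.2% and 78.8% for Mthfd2. Detection also varies with depth, and such a gap is not particular to these enzymes. The ESC marker Utf1 was detected in 94.6% and 78.5% of cells at nearly equal levels, 133.9 CPM in double-positive and 134.5 CPM in other cells.

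Among the 20 called genes named for the highest ratios, Nme7 (chr1:164304121-164437725, plus strand) came first, at 96.7 CPM in double-positive and 48.95 CPM in other cells, a log2 ratio of 0.98 (0.88 to 1.08). Sgk1 followed at 191 and 103 CPM, a log2 ratio of 0.90 (0.83 to 0.97). After Phgdh came Lin9, a subunit of a cell-cycle gene regulator (0.84), Sall1, a zinc finger factor (0.83), and Fblim1, an adhesion protein (0.82). Psat1 (0.80) and Lsm8, a part of the U6 RNA-binding ring (0.80), were next. The remaining named genes had log2 ratios of 0.68 to 0.78 and included the glycolytic enzyme Pfkp (0.77), the hexosamine enzyme Gfpt2 (0.76), the apolipoprotein Apoa2 (0.76), the imprinted gene Phlda2 (0.76), the ubiquitin hydrolase Uchl1 (0.73), the secreted lipase inhibitor Angptl4 (0.72), the E2F partner Tfdp1 (0.69), the apoptosis gene Bid (0.69) and the RNA-binding protein gene Igf2bp3 (0.68). These 20 genes were chosen by their ratios, so that their direction is no finding. Without the fibroblast-marked and keratin-high cells the log2 ratio was 0.70 for Mt2, 0.80 for Phgdh, 0.66 for Psat1 and Mthfd2, 0.87 for Nme7 and 0.90 for Sgk1, and all 20 still passed 1.5-fold.

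The chromosomes of the score held more of these genes than of the genes tested. Of the 43 higher genes, 22 (51.2%) lay on chromosomes 1, 6 and 8, where 850 (16.1%) of the 5277 genes tested lay, and so did 11 of the 20 named. The median log2 ratio over the genes of chromosome 1 was 0.24, of chromosome 6 0.25 and of chromosome 8 0.24. Of chromosome 11 it was -0.08, and the median over all 5277 genes was 0.01. The named genes on other chromosomes were Phgdh, Psat1, Sgk1, Fblim1, Pfkp, Phlda2, Uchl1, Angptl4 and Gfpt2, the last of them on chromosome 11.

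Within a score class nearly all of the higher genes fell short of the 1.5-fold limit. Among score-high cells with fewer than 3 fibroblast markers, 111 double-positive cells were set beside 251 others, and 6 genes (0.118% of 5106) were higher and 96 (1.88%) lower. Of the 6 higher genes, 3 were among the 43. All 20 named genes had a ratio above 0, with a median log2 of 0.30 and intervals above 0 for 17, and 1 of them, Gfpt2, passed 1.5-fold (22.9 CPM in double-positive and 14.1 CPM in other score-high cells, log2 0.70). Mt2 stood at 1595 CPM in double-positive and 1363 CPM in other score-high cells (log2 0.23), Phgdh at 266 and 204 CPM (0.38), Psat1 at 177 and 141 CPM (0.33), Sgk1 at 262 and 199 CPM (0.39), and Nme7 at 137 and 105 CPM (0.39).

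In score-low cells the ratios were again small, and for some markers had the other sign. With 48 double-positive and 537 other cells, 3 genes (0.0586% of 5120) were higher and 31 (0.605%) lower. The 3 higher genes, named after their values were seen, were Nnat, Klhl3 and Angptl4, and no gene was higher in both classes. Of the 20 named genes 17 had a ratio above 0, with a median log2 of 0.29, and the other 3 were Mt2 (554 CPM in double-positive and 603 CPM in other score-low cells, log2 -0.12), Psat1 (56.9 and 62.0 CPM, log2 -0.12) and Fblim1 (35.2 and 35.5 CPM, log2 -0.02). Phgdh stood at 98.7 CPM in double-positive and 84.3 CPM in other score-low cells (log2 0.23). Uchl1 had log2 ratios of 0.48 among score-high and 0.42 among score-low cells, and Apoa2 of 0.52 and 0.45.

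**Figure D3:**
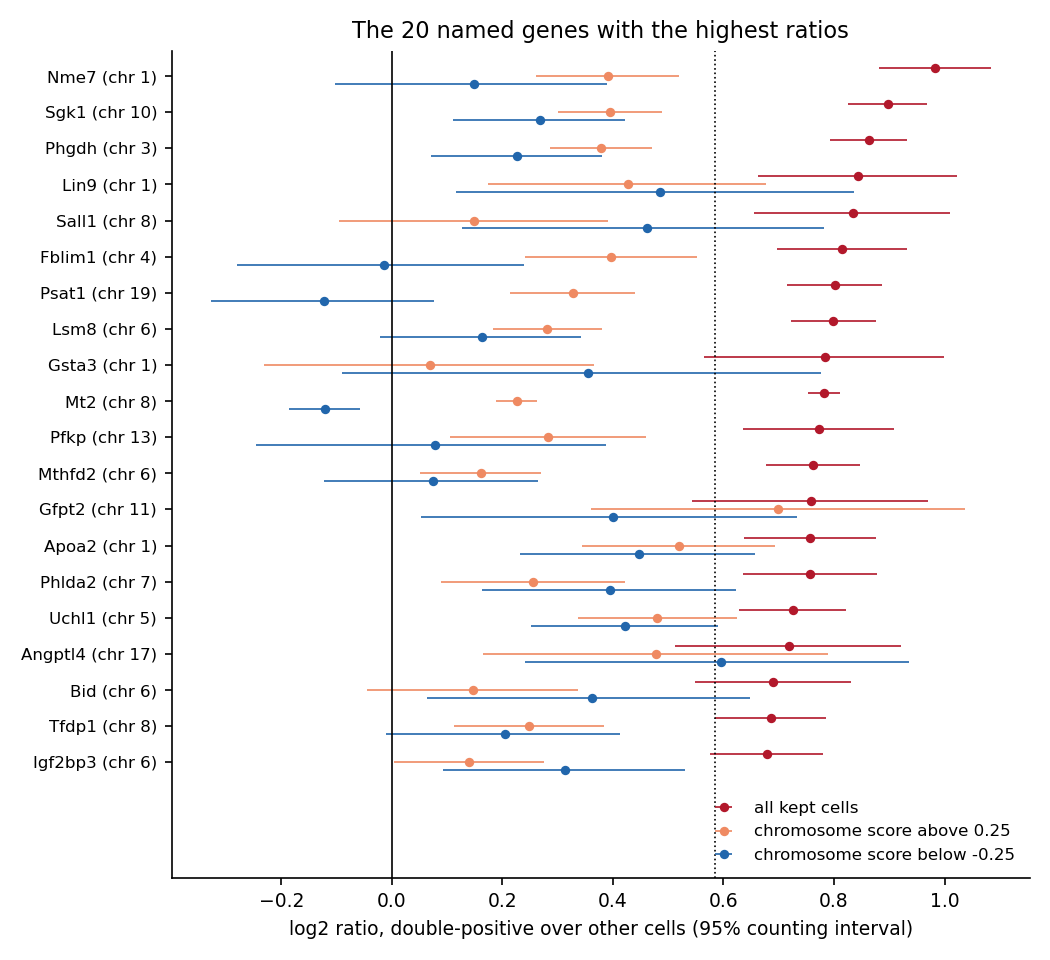
Log2 ratios with 95% counting intervals for the 20 named genes with the highest ratios, over all kept cells and within the score-high and score-low cells with fewer than 3 fibroblast markers; the dotted line is 1.5-fold. Over all cells the ratios run over 0.68 to 0.98, and within each class 19 of 20 lie left of the dotted line, with Gfpt2 past it among score-high and Angptl4 among score-low cells.

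The lower genes were led by markers of fibroblasts and smooth muscle. Myl9, a smooth muscle myosin light chain, held 1 UMI over all double-positive cells and 28.3 CPM in other cells. Acta2, smooth muscle actin, stood at 0.554 CPM in double-positive and 135 CPM in other cells, the collagen gene Col1a2 at 0.462 and 57.9 CPM, and the matrix protein gene Mgp at 13.5 and 581 CPM. Among score-high cells with fewer than 3 fibroblast markers, Mgp stood at 5.55 CPM in double-positive and 3.97 CPM in other cells and Acta2 at 0.979 and 2.35 CPM. The summed fibroblast markers stood at 45.4 CPM in double-positive and 1879 CPM in other score-high cells, and at 11.6 and 74.1 CPM in score-low cells, before the marked cells were left out. The part of those cells in other ratios was not tested beyond the values given without them.

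Another set was lower whichever score class was taken. In both classes 20 genes were at least 1.5-fold lower in double-positive cells, and the ones described here were picked after their values were seen. By the rule, cells with at least 2 Foxd1 or Dppa3 UMIs are all in the reference. The 178 such Dppa3 cells held 355 CPM of Krt18 and 1034 CPM of Fabp3, and the 210 such Foxd1 cells 7.01 and 640 CPM. Their part in the lower genes was not tested. Krt18 stood at 5.39 CPM in double-positive and 163 CPM in other score-high cells, and at 5.31 and 59.8 CPM in score-low cells. Without the keratin-high and fibroblast-marked cells the log2 ratio of Krt18 was -0.49 over all cells and -0.08 among score-high cells. Calcoco2, an autophagy receptor, stood at 19.4 CPM in double-positive and 106 CPM in other score-high cells, and at 151 and 268 CPM in score-low cells. Id2, an inhibitor of basic helix-loop-helix factors, stood at 10.1 and 46.5 CPM in score-high and at 31.6 and 53.7 CPM in score-low cells. Its relative Id1, a target of BMP signals, stood at 148 and 248 CPM in score-high and at 85.8 and 140.3 CPM in score-low cells. Fabp3, a fatty acid carrier, stood at 337 and 782 CPM in score-high and at 499 and 767 CPM in score-low cells. Without fibroblast-marked and keratin-high cells, 5 genes (0.0992% of 5040) were higher and 27 (0.536%) lower among score-high cells, and Calcoco2, Id1 and Id2 were among the lower ones. Fabp3 was not, and its log2 ratio over all cells without them was -0.50.

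Rhox5, an X-linked homeobox gene that DNA methylation keeps silent, was seen in few cells of either group and was lower in double-positive cells. It held 5 UMIs over the 167 cells (0.462 CPM) and 1598 UMIs over the other 1229 (23.8 CPM), a log2 ratio of -5.69 (-7.32 to -4.46). A Rhox5 UMI was seen in 2.99% of double-positive and 9.44% of other cells. The log2 ratio was -5.47 among score-high and -6.37 among score-low cells, and -5.80 without the fibroblast-marked and keratin-high cells. The class ratios rest on no more than those 5 double-positive UMIs. The part of the cells that the Foxd1 and Dppa3 limits hold in the reference was not tested. The imprinted RNA H19 had 10 UMIs in double-positive cells and 1467 in other cells (0.923 and 21.9 CPM), with a log2 ratio of -4.57, against -0.68 without the same cells.

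Gene lists were read at a lower limit of 5 CPM, at which 1.31% of 9131 genes were at least 1.5-fold higher in double-positive cells and 10.2% lower, with a median log2 ratio of -0.03. Of 18 measured enzymes of serine and one-carbon metabolism, 4 were higher (Phgdh, Psat1, Mthfd2 and the proline synthesis enzyme Aldh18a1) and 0 lower, with a median of 0.31. Without the fibroblast-marked and keratin-high cells, where 1.2% of 8758 genes were higher and 3.25% lower, 4 of 18 were higher and 1 lower, with a median of 0.17. Among score-high cells (0.978% of 8795 genes higher and 5.16% lower) 0 of 18 were higher, with a median of 0.17. Among score-low cells (1.13% of 8870 genes higher and 2.50% lower) 0 of 18 were higher and the median was 0.02. Phgdh, Psat1 and Mt2 were markers named with these cells, so the counts of their lists partly restate that choice.

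Of 12 measured genes of metallothionein and zinc handling, 4 were higher (Mt1, Mt2, Mt3 and the zinc exporter Slc30a1) and 1, the importer Slc39a1, was lower, with a median of -0.02. After removal of the fibroblast-marked and keratin-high cells 3 of 12 were higher and 1 lower. Among score-high cells 1 of 12 was higher and 1 lower, with a median of 0.07. Among score-low cells 1 of 11 was higher and 0 lower, with a median of -0.12. Slc30a1 stood at 11.4 CPM in double-positive and 7.20 CPM in other cells, and Slc39a1 at 4.98 and 11.3 CPM. The amino acid transporters and tRNA synthetases had 0 of 20 higher and 1 lower, with a median of 0.26, and 0 of 19 in either direction without those cells. The integrated stress response, which also reaches serine enzymes, had 1 of 14 higher and 4 lower, with a median of -0.32. Its members Ddit3, Cebpb and Ddit4 stood at 9.51, 6.65 and 6.37 CPM in double-positive cells, against 22.5, 24.1 and 12.05 CPM in other cells. Without the fibroblast-marked and keratin-high cells 2 of 14 were higher and 1 lower, with a median of 0.05, and the log2 ratios were -0.57 for Ddit3, -0.16 for Cebpb and -0.74 for Ddit4.

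Pluripotency genes were read in naive, general and primed lists. Of 14 measured naive genes 0 were higher and 0 lower, with a median of 0.13, and Tfcp2l1 (0.44) and Zfp42 (0.40), on chromosomes 1 and 8, had the largest ratios. Among score-high cells those were -0.01 and 0.04. Of 12 measured general pluripotency genes 0 were higher and 1, the zinc finger gene Rex2, was lower (10.6 CPM in double-positive and 18.5 CPM in other cells, log2 -0.80). Its log2 ratio was -0.91 without the fibroblast-marked and keratin-high cells, -1.95 among score-high and 0.086 among score-low cells. Of 8 measured genes of primed epiblast 0 were higher and 3 lower, with a median of -0.52, and Sox4 stood at 33.3 CPM in double-positive and 58.0 CPM in other cells. With the same cells left out 2 of 7 primed genes were lower, and the log2 ratio of Sox4 was -0.14. All 18 genes of S phase had ratios above 0 with 0 past 1.5-fold and a median of 0.38, which was 0.22 without those cells, 0.17 among score-high and 0.07 among score-low cells. The 19 genes of G2 and mitosis had 0 past the limit and a median of 0.16.

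Signalling targets were mixed. Of 9 measured genes of FGF and ERK feedback 2 were higher and 0 lower, the phosphatase Dusp6 (16.2 CPM in double-positive and 9.68 CPM in other cells, log2 0.75) and the transcription factor Etv4 (57.8 and 37.5 CPM, log2 0.62). Their log2 ratios were 0.68 and 0.52 without the fibroblast-marked and keratin-high cells, and 0.02 and -0.01 among score-high cells. Of 12 Nodal and BMP targets 1 was higher, the Nodal inhibitor Lefty1 (67.0 and 42.6 CPM, log2 0.65, and 0.50 both without those cells and among score-high cells), and 3 were lower (Id1, Id2 and Bambi), of which 1, Id2, was lower without the fibroblast-marked and keratin-high cells. Of 9 Wnt targets 0 were higher and 2 lower, and 1 was lower without those cells.

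Lists of stress genes differed from each other. Of 17 measured genes of oxidative stress defence 0 were higher and 1 lower, with a median of -0.09, and of 19 of glycolysis and hypoxia 1 was higher and 2 lower, with a median of 0.02. Of 15 genes regulated by p53, 0 were higher and 5 lower, with a median of -0.46, which was -0.39 among score-high and -0.15 among score-low cells. Perp, a p53 target in epithelia, stood at 18.6 CPM in double-positive and 51.5 CPM in other cells, and Plk2, a polo-like kinase, at 18.7 and 43.0 CPM. Cdkn1a, the cell cycle inhibitor p21, had a log2 ratio of -0.59 over all cells, but of 0.0015 without the fibroblast-marked and keratin-high cells, where 3 of 14 p53 targets were lower. Perp had a log2 ratio of -0.81 and Plk2 of -0.98 there. Of 8 immediate early genes 0 were higher and 3 lower, and 1 was lower without those cells. Mitochondrial genes (0 of 13 in either direction, median -0.11) and oxidative phosphorylation (0 of 26, median 0.08) stayed within the limit.

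Relatives of Calb2 and Trh were read from lists of their own. Of 14 measured EF-hand genes other than Calb2, 0 were higher and 6 lower, among them S100a6 at 39.5 CPM in double-positive and 606 CPM in other cells. Of 4 measured neuropeptide or processing genes other than Trh, Chga, a granin of secretory granules, was higher (13.3 and 8.75 CPM, log2 0.60) and 3 were lower, among them Cpe and Pam, enzymes that finish peptide hormones (8.86 and 34.2 CPM, and 2.58 and 9.71 CPM). Among score-high cells with fewer than 3 fibroblast markers, Cpe stood at 7.999 CPM in double-positive and 6.77 CPM in other cells. Without the fibroblast-marked and keratin-high cells 1 of 13 EF-hand genes was higher and 1 lower, and the log2 ratio was -0.69 for S100a6 and 0.96 for Cpe. Imprinted genes had 1 of 15 higher, Phlda2, and 6 lower, and without those cells 1 of 14 higher and 3 lower.

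**Figure D4:**
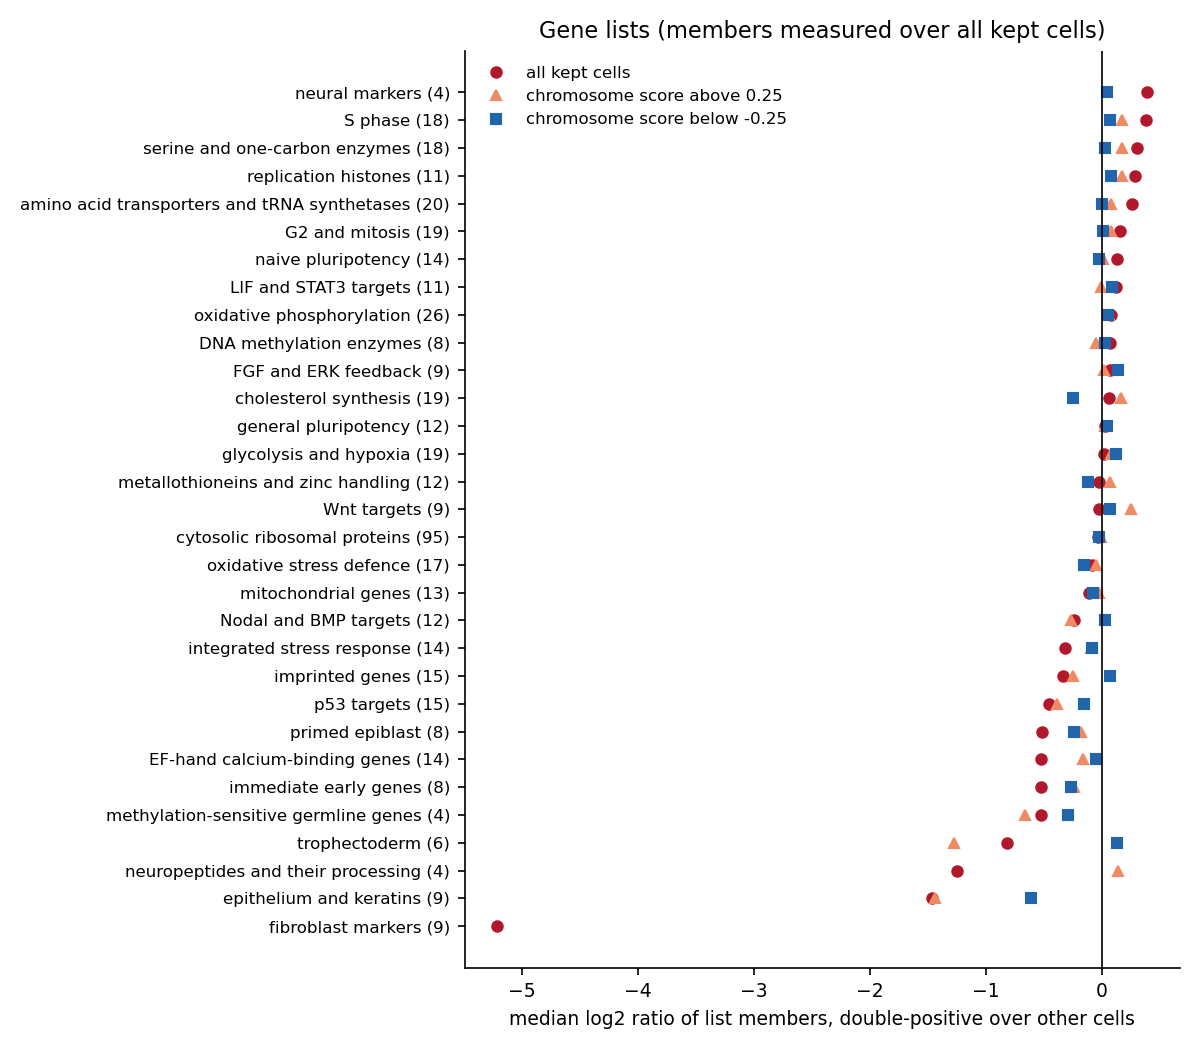
Median log2 ratio of the measured members of each gene list, double-positive over other cells, over all kept cells and within the score-high and score-low cells; lists with fewer than 4 measured genes in a comparison are not drawn there. Serine and one-carbon enzymes (0.31) and S phase (0.38) stand right of 0 over all cells and nearer to 0 within both classes, and fibroblast (-5.21) and keratin lists (-1.46) lie furthest left.

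Calb2 and Trh were set side by side in cells thinned to 20000 UMIs with fewer than 3 fibroblast markers, without the Foxd1 and Dppa3 limits. Of 1089 such cells 21.1% held Calb2 and 80.1% Trh, and 18.7% held both, where the product of the shares is 16.9%. Trh stood at 431.5 CPM in cells with Calb2 and at 220 CPM in cells without it. Within the score-high class those levels were 609.5 and 415.5 CPM, within the score-low class 192 and 153 CPM, and between the limits 367 and 171 CPM. By level Trh was higher beside Calb2 in each class. By detection the class between the limits went the other way, with a Trh UMI in 61.5% of its 26 cells with Calb2 and in 72.8% of those without, and both genes in 6.13% where the product is 7.14%. In score-high cells both were seen in 36.1% (product 34.3%) and in score-low cells in 14.1% (product 12.6%).

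Along the number of Calb2 UMIs, the markers separated by class in the thinned cells. Among score-high cells Phgdh stood at 220, 240, 278 and 303 CPM with 0, 1, 2 and 3 or more Calb2 UMIs, in 203, 73, 32 and 16 cells. Among score-low cells Phgdh stood at 82.7, 86.2, 62.5 and 33.3 CPM, in 421, 69, 8 and 6 cells. Phgdh intervals in score-high cells at 2 and at 3 or more UMIs lay above that at 0 (206 to 235 CPM). In score-low cells all Phgdh intervals overlapped, with 76.6 to 89.04 CPM at 0 and 9.08 to 85.3 CPM at 3 or more UMIs. The values thus did not show whether the order of Phgdh levels differed between the classes. Mt2 stood at 1386, 1582, 1491 and 1556 CPM in score-high cells and at 605, 560, 412.5 and 367 CPM in score-low cells. Mt2 was lower with more Calb2 in score-low cells and was lowest without Calb2 in score-high cells, and the last 2 steps of the score-low class rest on few cells. Psat1 in score-high cells stood at 135 CPM (124 to 147), 173 CPM (152 to 195), 156 CPM (127 to 190) and 178 CPM (135 to 231), and only the intervals at 0 and 1 UMI did not overlap. In score-low cells it stood at 61.6, 50.7, 62.5 and 25 CPM.

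**Figure D5:**
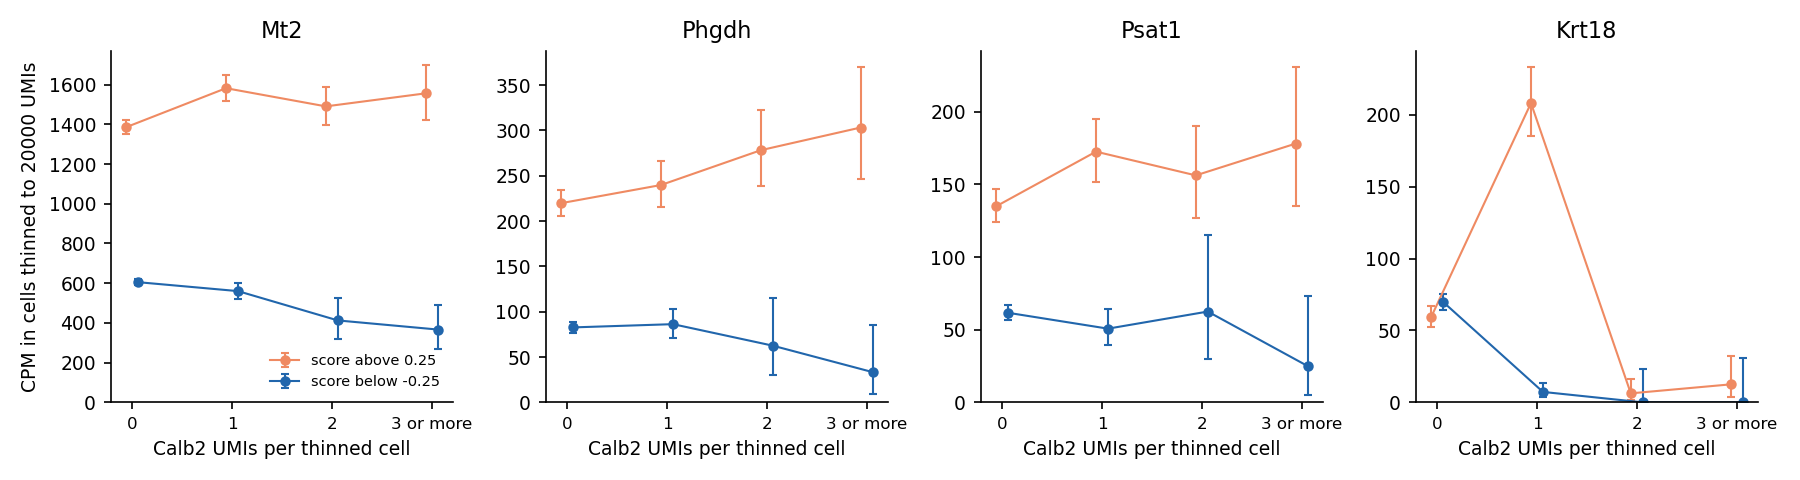
Levels of Mt2, Phgdh, Psat1 and Krt18 (CPM in cells thinned to 20000 UMIs with fewer than 3 fibroblast markers) by number of Calb2 UMIs, with 95% counting intervals, for score-high and score-low cells. The classes stay apart at each number of Calb2 UMIs for Mt2 and Phgdh, and Krt18 in score-high cells is at 59.4, 208, 6.25 and 12.5 CPM with 0, 1, 2 and 3 or more Calb2 UMIs.

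Nearest neighbours in expression showed how far double-positive cells lay together. Over 1199 thinned cells and 30 principal components, in which the rule genes took no part, 30.7% of the 15 nearest neighbours of a double-positive cell were double-positive, against 12.7% for other cells, and 13.8% of these cells were double-positive. Within score-high cells the shares were 41.5% for double-positive and 36.0% for other cells, where 35.5% were double-positive. Within score-low cells they were 10.8% and 9.98%, where 9.78% were double-positive.

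The same genes were read in the few cells that met the rule elsewhere. In cKO ESC, 4 cells met the rule, and 16 of the 20 named genes had ratios above 0. Mt2 stood at 528 CPM in double-positive and 364 CPM in other cKO ESC (log2 0.54, 0.33 to 0.74), Sgk1 at 158 and 79.4 CPM (0.996, 0.60 to 1.37) and Phgdh at 67.1 and 82.4 CPM (-0.30, -0.93 to 0.27). None of the 4 cells was score-high or score-low. Over all kept cKO ESC, whose median set the score, 3.02% were score-high and 3.58% score-low. At day 3 the score was taken relative to the median cKO day 3 cell. Of the 11 double-positive parental cells at day 3, 7 were score-high and 4 score-low. Over all kept parental cells at day 3 those shares were 52.8% and 33.4%. In the 11 cells 13 of the 20 genes had ratios above 0. Mt2 stood at 348 CPM there and at 369 CPM in the other parental day 3 cells (-0.09, -0.24 to 0.07). These sets are too small to describe more than the cells they hold.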

How the data were processed

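Single-cell suspensions of cKO and parental cells were sequenced as 6 libraries. Per the submitters' processing notes the authors used Cell Ranger and the mm10 build, and per the file headers the version was 3.1.0. For each barcode the authors deposited a UMI count of 31053 genes, as whole numbers without normalization. Gene positions came from GENCODE for the same build (31011 genes matched by identifier) and promoters from RefSeq (GRCm38.p6).

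The double-positive cells, the gene lists, the chromosome score and its limits were chosen with earlier results of these data known. Barcodes below 1000 genes or above 10% mitochondrial UMIs were left out. Counts were summed over cells and scaled to CPM. CPM carry exact Poisson and log2 ratios exact conditional binomial 95% intervals, shares carry Clopper-Pearson intervals, and a sum of 0 was set to a floor of 3 counts. Genes were called at 1.5-fold with at least 20 CPM in the higher group. The 35 lists used 5 CPM. The ratio calculation was checked on simulated counts. Cells are not replicates, so no p-value is given.

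Named genes were the rule genes and markers, up to 20 highest and 12 lowest ratios among called genes seen in at least 10% of cells (1 CPM added for ranking; mitochondrial, ribosomal and unnamed genes left out), and up to 3 per list. Other genes are said to be chosen later or are list members that passed. Scrublet, through scanpy 1.11.5, marked 1 parental ESC barcode (0.0716%), too few to count as a working filter, and no double-positive cell, so doublets remain possible. Nearest neighbours were taken from 2000 variable genes and 30 principal components of cells thinned to 20000 UMIs. Python 3.11.15, numpy 2.4.6, scipy 1.17.1, pandas 2.3.3 and scikit-learn 1.9.0 were used. The alternatives covered depth, limits of the rule, cell filters, doublets, comparison cells, weighting, scaling and thresholds.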

Additional observations from a re-analysis of the deposited data

Results flagged for a closer look

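Lsm8, a gene on chromosome 6, differed in direction between the 2 ESC libraries. In the cKO library its log2 ratio of double-positive over other cells was -0.92 (-1.80 to -0.18), with 37.6 CPM in double-positive and 71.3 CPM in other cells, and rested on 14 UMIs in 4 cells. In the parental library it was 0.80 (0.72 to 0.88), with 162 CPM in double-positive and 93.3 CPM in other cells. The difference between the libraries was not tested. Among score-high parental cells the log2 ratio of Lsm8 was 0.28.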

How the results depend on the processing

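The 11.96% share of double-positive cells was 4.92% after thinning to 20000 UMIs, 7.31% with at least 3 Calb2 and 2 Trh UMIs, 23.4% with at least 1 of each, 16.3% without the Foxd1 and Dppa3 limits, 17.5% with cell limits of 2000 genes and 5% mitochondrial UMIs, and 7.07% of every deposited barcode. Of genes higher and lower (43 and 289), thinning gave 203 and 493, the interquartile depth band 99 and 463, and a reference without 3 or more fibroblast-marker UMIs 28 and 93. Score-high cells gave 6 and 96. A 2-fold limit gave 0 and 143, 50 CPM gave 24 and 112, and 5 CPM gave 120 and 935. Of genes higher, the stricter UMI limits gave 65, 1 UMI of each 22, no Foxd1 and Dppa3 limits 22, and equal weight per cell 80. Of genes lower, the stricter cell filter gave 149. Chosen after seeing the data, score-low cells gave 3 and 31, removal of fibroblast-marked and keratin-high cells gave 78 lower, and that removal among score-high cells 5 and 27. The remaining counts stayed within 1.5 times. Causes were not tested.

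Ratios that changed sign were those of Mgp (log2 1.96), Thbs1 (1.58), Col1a1 (0.83), Inhba (0.69) and Aebp1 (0.32) without other cells that held 3 or more fibroblast-marker UMIs, and of Mgp in score-high cells (0.48). In score-low cells they were Mt2 (-0.12), Psat1 (-0.12), Fblim1 (-0.015) and Mgp (0.062). Without fibroblast-marked and keratin-high cells they were Mgp (0.33) and Thbs1 (0.056), and among score-high cells of that kind Mgp (0.64). Ratios of genes at the floor of 3 counts were left out there. No paired analysis was possible because each group held 1 library, so no replicate could be left out either. Depth per cell limits the rule itself, since 2 Calb2 UMIs are near the detection limit.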
